A study of Mus musculus with 4 samples.

Results

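Integrins, cadherins, catenins, claudins, connexins and zonula occludens proteins join cells to each other and to the extracellular matrix. Their genes were taken from the table of late 2C mouse embryos by symbol, as all symbols that begin with Itga or Itgb, Cdh and a digit, Ctnn, Cldn and a digit, Gja to Gje and a digit, or Tjp and a digit. The rule used no measured value and found 119 of 26022 genes. A few of these symbols belong to genes of another role, such as *Itgb3bp*, a centromere gene, and *Ctnnbl1*, a splicing gene. Control embryos of the ICR strain had been cultured from the zygote for 16 h in KSOM medium, and treated embryos for the same time in KSOM with 200 μM Mdivi-1, an inhibitor of the mitochondrial fission protein DRP1. Zygotes came from superovulated ICR females aged 7 to 8 weeks that had mated with ICR males. Each group had 2 Smart-Seq2 libraries, and 8 to 10 embryos were pooled for a group. Whether a group's libraries came from separate embryos or litters is not in the labels, so the tests measure the spread between libraries, which may be technical.

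At the 2C stage the blastomeres are loosely attached. Compaction follows at the 8-cell stage, when E-cadherin and the catenins that tie it to actin flatten the cells against each other. Claudins and zonula occludens proteins later seal the tight junctions of the trophectoderm. Connexins form gap junctions, and integrins are pairs of an α and a β chain that bind matrix proteins or other cells. Much of the RNA at this stage was stored by the oocyte, so that a level may reflect maternal RNA as well as new transcription.

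Raw counts of the libraries summed to between 17712075 and 20077326. All 8 markers of oocyte and 2C embryo were measured, and 3 of them (*Zfp352*, *Dazl* and *Zscan4d*) were called higher in treated embryos by DESeq2. It called 3.30% of all genes higher. Levels are in CPM, which are read counts scaled to library size with TMM factors. *Zp3* went the other way, at 198 and 270 CPM without the inhibitor and 149 and 99.2 CPM with it. *Nlrp5* and *Padi6* overlapped between the groups. The summed level of the 8 markers was 1747 and 3129 CPM without the inhibitor and 3692 and 4750 CPM with it. Much of that was *Oosp1*, at 956 and 2368 against 2401 and 3198 CPM. The part of these marker differences in the results that follow was not tested. Of 13 markers of cumulus and granulosa cells, *Amh*, *Inha*, *Has2*, *Ptx3* and *Vcan* had no count in any library and 8 had counts. *Amhr2*, which encodes the AMH receptor, was below both controls in both treated libraries, and *Tnfaip6*, at 6.55 to 15.3 CPM, overlapped. *Fshr* had 67 raw counts in control replicate 2, 11 in Mdivi-1 replicate 2 and no count elsewhere. The list summed to 19.0 and 34.7 CPM without the inhibitor and 24.2 and 22.0 CPM with it. Of 5 trophectoderm markers, *Cdx2* had no count, the list summed to 11.4 and 18.2 CPM without Mdivi-1 against 29.0 and 28.4 CPM with it, and *Gata3* (10.5 and 9.45 against 26.4 and 22.5 CPM) alone was past an unadjusted p of 0.05. Of 5 oviduct markers, *Foxj1* and *Sec14l3* had no count and the list summed to between 0.787 and 6.92 CPM. Of 3 blood genes, *Hbb-bs* had no count, and *Hba-a1* had between 46.8 and 59.3 CPM. Since these are bulk samples, fewer embryos with a transcript and less of it in each embryo cannot be told apart.

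*Itga9* and *Gja1* are the members with the smallest p in each direction, and for that reason the sequence before the start of each is given. Both come from RefSeq on GRCm38.p6, plus strand, 5′ to 3′, in lower case. Capitals mark matches on either strand to any of 4 motifs. The TATA box was searched as TATAAA and the CCAAT box by the letters of its name. The GC box was searched as GGGCGG. The AP-1 element was searched as TGANTCA. For *Itga9* these are the 215 bases from 250 to 36 bases before its RefSeq start, at chr9:118711442-118711656, which end before the first exon that GENCODE M21 places there.
*Itga9*: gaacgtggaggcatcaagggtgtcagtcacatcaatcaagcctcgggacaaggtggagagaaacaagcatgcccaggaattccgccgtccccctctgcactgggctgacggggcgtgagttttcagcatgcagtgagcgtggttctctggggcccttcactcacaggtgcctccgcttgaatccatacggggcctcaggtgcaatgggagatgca
For *Gja1* these are the 250 bases before the RefSeq start, at chr10:56377050-56377299.
*Gja1*: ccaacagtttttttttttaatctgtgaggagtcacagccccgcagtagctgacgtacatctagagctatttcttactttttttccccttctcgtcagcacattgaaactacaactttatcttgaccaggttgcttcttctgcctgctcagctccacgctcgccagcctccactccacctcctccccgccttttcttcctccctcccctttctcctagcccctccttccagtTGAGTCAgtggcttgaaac
The *Gja1* window held 1 match, an AP-1 element from 19 to 13 bases before the start, and these letters occur in 6.7% of 32851 RefSeq windows of 250 bases. No letters of the other motifs were in it. In the 250 bases before *Itga9* none of the 4 motifs matched, where 12.4% of all windows hold TATAAA, 33.8% CCAAT and 32.7% GGGCGG. GC made up 58.4% of the 250 bases before *Itga9* and 50.0% of those before *Gja1*, against a median of 52.4% over all windows. The gene model of *Itga9* in GENCODE M21 begins far upstream of this start, and counts per gene do not show which start was used.

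Most of the genes were at a low level or had no count. Of the 119, 29 had no count in any library, 12 had counts in 1 library, 52 had counts in all 4, and 67 passed the filter on low counts and were tested. A mean of at least 10 CPM in a group was reached by 24. Of 9 catenins and related genes, 8 were tested and 7 reached 10 CPM. Of 34 claudins, 14 had no count and 3 reached 10 CPM. Among 22 cadherin genes only *Cdh1*, which encodes E-cadherin, reached that level. Of 20 connexin genes, 7 had no count and 2 reached 10 CPM. A count of 0 still allows up to 3 counts in a library, which is about 0.167 CPM in a control.

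**Figure D1:**
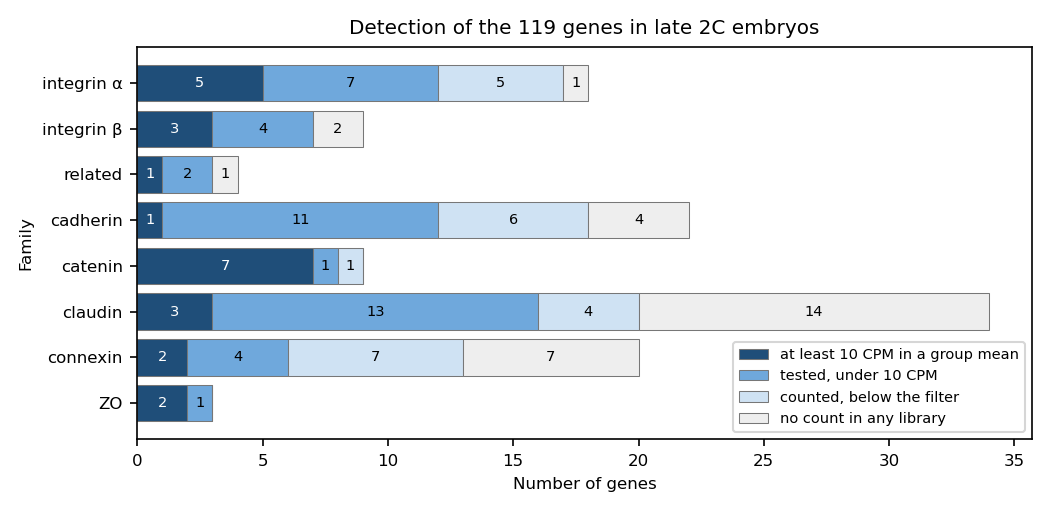
Number of genes (x axis) in each family (y axis) by how they were measured, with integrin-related genes as "related" and zonula occludens genes as "ZO". Dark blue marks genes with at least 10 CPM in a group mean, mid blue other tested genes, pale blue genes counted but below the filter, and grey genes with no count; 14 of 34 claudin genes had no count, and 7 of 9 catenin genes reached 10 CPM.

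Per kilobase of exon, so that genes can be set beside each other, the highest mean level over the 4 libraries was 43.1 CPM per kb for *Itgb1bp1*, whose product binds the tail of integrin β1. Next came *Ctnnal1* (α-catulin, related to α-catenin) at 21.8 CPM per kb and *Ctnnbl1* at 18.9 CPM per kb. The core adhesion genes were lower, with *Ctnnb1* (β-catenin) at 15.3, *Ctnna1* (αE-catenin) at 11.5, *Cdh1* at 4.07, *Tjp1* (ZO-1) at 3.34 and *Itgb1* (integrin β1) at 2.75 CPM per kb. *Gja1* (connexin 43) had 15.0 CPM per kb in control and 5.07 CPM per kb in treated embryos. *Itga9* (integrin α9) had 1.78 and 8.64 CPM per kb. Exon lengths are those of all exons of a gene in GENCODE M21 merged, which is longer than most single transcripts.

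By edgeR's quasi-likelihood test, 0 of the 67 members passed an adjusted p of 0.05, as did 0% of all 14259 genes tested. At an unadjusted p under 0.05, 8 members were higher and 5 lower in treated embryos, and of all genes tested 8.27% were higher and 7.64% lower. Library totals in place of TMM gave 8 higher and 3 lower, and moved the median log2 fold change of all genes to 0.14. Over all 14259 genes they gave 1287 higher and 769 lower. DESeq2 on the same genes called 3 members higher (*Itga9*, *Itga8* and *Cldn16*) and 1 lower (*Gja1*) at an adjusted p of 0.05, where it called 3.30% of all genes higher and 2.80% lower. Limma-voom called *Itga9* and *Gja1*, and edgeR's likelihood ratio test those 4 and *Cdh17*. Over all 14259 genes, limma-voom called 125 higher and 77 lower, and the likelihood ratio test 512 and 358. Both treated libraries lay above both controls in 19 members and below both in 13, which happened in 26.1% and 23.9% of all genes tested. These shares of the members are near those of all genes. Their median log2 fold change was 0.31, against 0.03 over all genes, and -0.06 over the 43 members that reached the filter level in all 4 libraries. Over all 10818 genes at that level in all 4 libraries it was -0.02. The other 24 tested members could pass the filter through 1 group or 1 library of each, so that their differences are partly set by it. Of the 25 members past a log2 fold change of 1 in either direction, 19 were under 10 CPM in both groups. The counts of members at an unadjusted p under 0.05 moved when 1 library was left out, as those over all genes did.

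**Figure D2:**
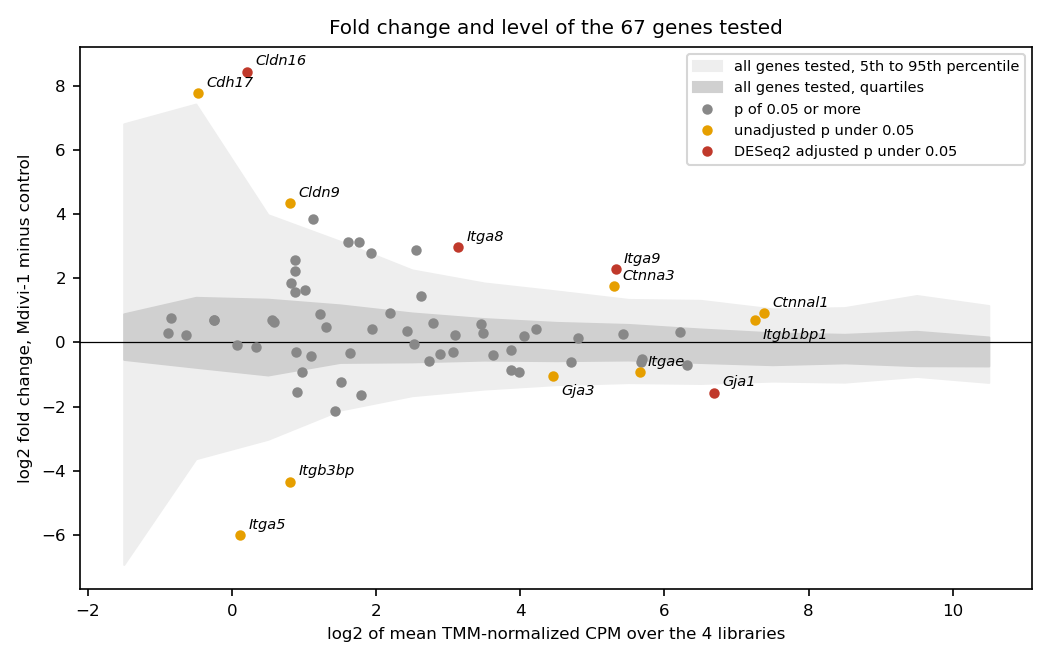
Log2 fold change of Mdivi-1-treated against control embryos (y axis) and log2 of the mean CPM over the 4 libraries (x axis) for each of the 67 members tested, as a dot, over grey bands for the quartiles and the 5th to 95th percentiles of all genes tested. Red dots are the 4 members with an adjusted p under 0.05 by DESeq2, orange dots other members with an unadjusted p under 0.05 by edgeR; *Itga9*, at a log2 fold change of 2.28, and *Gja1*, at -1.57, lie outside the bands at their level. Other members do too, such as *Itga8* at 2.97 and *Itga5* at -6.00, and so does a part of all genes, by the definition of the bands.

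*Itga9* was the integrin gene with the smallest p. It encodes the α9 chain, which pairs with β1 and binds tenascin-C, osteopontin and VCAM-1, and the gene spans chromosome 9 (GRCm38) from 118606690 to 118901003 (ENSMUSG00000039115). Control replicates 1 and 2 had 14.2 and 13.1 CPM, and Mdivi-1 replicates 1 and 2 had 63.1 and 69.8 CPM. Both treated libraries were far above both controls, at 13.7 ± 0.793 CPM without and 66.5 ± 4.72 CPM with the inhibitor (SD, n = 2 libraries). This is a 4.85-fold difference, with a log2 fold change of 2.28 (standard error, SE, 0.35, adjusted p = 0.136 by edgeR and 3.18e-05 by DESeq2). Leaving out either control kept the DESeq2 call (adjusted p = 0.000122 and 0.000163), whereas without Mdivi-1 replicate 1 or 2 the adjusted p was 0.0541 and 0.0608.

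*Itga8* encodes the α8 chain, which also pairs with β1 and binds nephronectin and fibronectin. The gene lies on the minus strand of chromosome 2 from 12106632 to 12301922 (ENSMUSG00000026768). It had 2.18 and 1.77 CPM without the inhibitor and 14.3 and 16.8 CPM with it. Both treated libraries were well above both controls, by 7.84-fold, and the log2 fold change was 2.97 (SE 0.64, adjusted p = 0.151 by edgeR and 0.00451 by DESeq2). DESeq2 did not call it without Mdivi-1 replicate 1 (adjusted p = 0.241) or replicate 2 (adjusted p = 0.270). Its exons share 372 of 7368 bases with *E030013I19Rik* on the other strand, which had no count in any library.

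The β1 chain, the partner of α8 and α9, did not separate the groups. *Itgb1* had 9.28 and 10.8 CPM without the inhibitor and 6.55 and 18.3 CPM with it, so that the treated libraries lay on either side of the controls. Its log2 fold change was 0.31 with a standard error of 0.64, and turned to -0.63 without Mdivi-1 replicate 2. *Itgb1bp1*, which encodes the β1-binding protein ICAP-1, had 105 and 129 CPM without the inhibitor against 204 and 172 CPM with it. Here the groups did not overlap, and the log2 fold change was 0.69 (SE 0.30, adjusted p = 0.314 by edgeR and 0.242 by DESeq2). It shares 598 of 3537 exonic bases with *Asap2* and *Cpsf3* on the other strand.

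Among the other α chains, *Itgae* and *Itgav* had the highest mean level per kilobase of exon, at 11.01 and 4.79 CPM per kb. *Itgae* (αE, also known as CD103), which with β7 binds E-cadherin, had 52.5 and 79.3 CPM without the inhibitor and 39.7 and 30.2 CPM with it. Both treated libraries were below both controls, at a log2 fold change of -0.92 (SE 0.36, adjusted p = 0.275 by edgeR and 0.197 by DESeq2). *Itgb7*, its partner, was at 3.73 and 1.84 CPM against 0.644 and 1.25 CPM. The αv chain of fibronectin and vitronectin receptors is encoded by *Itgav*, which had 60.0 and 61.4 CPM without the inhibitor and 42.3 and 41.9 CPM with it. The spread within groups was small and the groups did not overlap, but the log2 fold change of -0.53 (SE 0.31) had an edgeR adjusted p of 0.453. *Itga6*, a chain of laminin receptors, had 48.5 and 29.1 CPM against 42.5 and 51.8 CPM, with overlap between the groups.

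*Itga5*, the α chain of the classical fibronectin receptor, was near the limit of detection. It had 16 and 54 raw counts without the inhibitor and 1 and 0 with it. The control level was 71.1 times that of the treated libraries, with an interval of 12.4 to 2849 that covers counting error only (95%, exact binomial). Control replicate 2 held most of these counts, and the edgeR adjusted p was 0.271 and that of DESeq2 0.115. *Itga5* passed the filter only through its controls, so its difference is partly set by the filter. *Itga3*, which encodes another laminin-binding chain, was under 1.2 CPM in each library. *Itga1* had 55 counts in Mdivi-1 replicate 1 and none elsewhere, and *Itga11* had 9 and 33 counts in the controls and none in the treated libraries. *Itga2*, a collagen-binding chain, had no count.

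Of the β chains other than β1, 3 of the 6 measured overlapped between the groups. *Itgb5*, a partner of αv, had 19.3 and 12.3 CPM without the inhibitor and 10.3 and 16.6 CPM with it. *Itgb3*, another αv partner, had 2.78 and 0 CPM against 13.6 and 7.24 CPM. The treated libraries were higher, yet the absence of counts in control replicate 2 makes the size uncertain (log2 fold change 2.88, SE 1.52, adjusted p = 0.400 by edgeR and 0.191 by DESeq2). Both treated libraries but not both controls reached the filter level, so this difference is partly set by the filter. *Itgb6*, also an αv partner, ranged from 1.77 to 16.6 CPM within the treated group alone. *Itgb8* had no count. *Itgb3bp*, whose product CENP-R belongs to the centromere, had 2.55 and 4.13 CPM without the inhibitor and 0.161 and 0.156 CPM with it. This difference of 56 and 63 counts against 3 and 3 had an edgeR adjusted p of 0.253 and a DESeq2 adjusted p of 0.0823. The gene passed the filter only through its controls, which partly sets this difference.

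As a family, the summed level of the 18 integrin α genes was 198 and 211 CPM without the inhibitor and 217 and 230 CPM with it, a narrow range. *Itga9* made up 7.20% and 6.22% of that sum without the inhibitor and 29.2% and 30.3% with it, while *Itgae* went from 26.5% and 37.6% to 18.3% and 13.1%. The rest of the family, without these and *Itga8* and *Itgav*, summed to between 55.4 and 71.5 CPM.

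**Figure D3:**
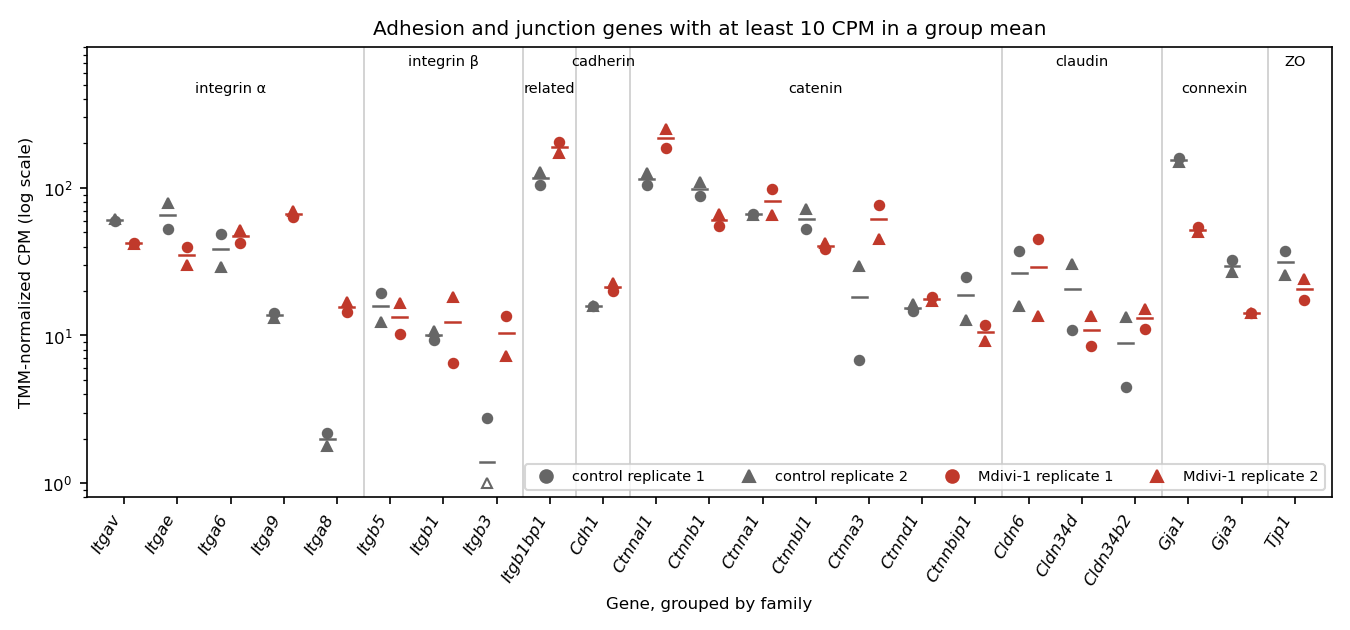
Level in CPM (y axis, logarithmic) for 23 members with at least 10 CPM in a group mean (x axis, by family, with integrin-related genes as "related" and zonula occludens genes as "ZO"), with control libraries in grey, Mdivi-1-treated libraries in red, circles for replicate 1, triangles for replicate 2 and bars at group means. The open triangle is a library at 0, drawn at the foot of the axis (*Itgb3*, control replicate 2); *Itga9* at 14.2 and 13.1 against 63.1 and 69.8 CPM and *Gja1* at 159 and 149 against 53.9 and 50.1 CPM are far apart for their spread.

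The summed level of the connexin genes was lower in treated embryos, and the difference lay in *Gja1* and *Gja3*. *Gja1* encodes connexin 43, a gap junction protein of oocytes, cumulus cells and early embryos. The gene lies on chromosome 10 from 56377330 to 56402513 (ENSMUSG00000050953). The controls had 159 and 149 CPM and the treated libraries 53.9 and 50.1 CPM. The groups were far apart compared with the spread within either, at 154 ± 7.45 CPM against 52.0 ± 2.72 CPM (SD, n = 2 libraries). The level in control was 2.96 times that in treated embryos (log2 fold change -1.57, SE 0.29, adjusted p = 0.145 by edgeR and 0.000353 by DESeq2). DESeq2 kept the call without either control (adjusted p = 0.00219 and 0.000924) and lost it without Mdivi-1 replicate 1 or 2 (adjusted p = 0.0931 and 0.0831). Cumulus cells also express this gene. The cumulus marker *Amhr2* had 12.5 and 18.5 CPM against 7.73 and 5.58 CPM, lower in both treated libraries as *Gja1* was. *Fshr* had 67 raw counts in control replicate 2, 11 in Mdivi-1 replicate 2 and no count elsewhere. *Foxl2* had 11 counts in control replicate 2 only. Of the 3 cumulus markers tested, 2 had a negative log2 fold change and 1 a positive one. Other markers of the list differed from *Gja1*. *Tnfaip6* had 6.55 and 10.7 against 9.98 and 15.3 CPM, with overlap. *Lhcgr* had 45 raw counts and *Ptgs2* 76 in Mdivi-1 replicate 1, against at most 3 in any other library. The whole list of 13, of which 5 were at 0, ranged from 19.0 to 34.7 CPM in the controls and from 22.0 to 24.2 CPM with Mdivi-1. The part of cumulus cells in the *Gja1* result was not tested.

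*Gja3*, which encodes connexin 46, lies on chromosome 14 from 57034460 to 57058100 (ENSMUSG00000048582). It had 32.2 and 27.0 CPM without the inhibitor and 14.3 and 14.1 CPM with it. Again both treated libraries were below both controls, with a log2 fold change of -1.06 (SE 0.40, adjusted p = 0.263 by edgeR and 0.225 by DESeq2). The other 4 connexins tested were under 8 CPM in each library and overlapped. *Gjc1* (connexin 45) had 4.32 and 7.41 CPM against 6.87 and 4.38 CPM, and *Gja4* (connexin 37), which joins the oocyte to granulosa cells, had 2.50 and 1.64 against 2.09 and 3.65 CPM. Without *Gja1* and *Gja3* the connexins summed to 9.19 and 13.6 CPM without the inhibitor and 11.2 and 17.2 CPM with it. With them, the sums were 201 and 189 CPM against 79.4 and 81.4 CPM. *Gja10*, below the filter, had 43 of its 46 counts in Mdivi-1 replicate 2.

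**Figure D4:**
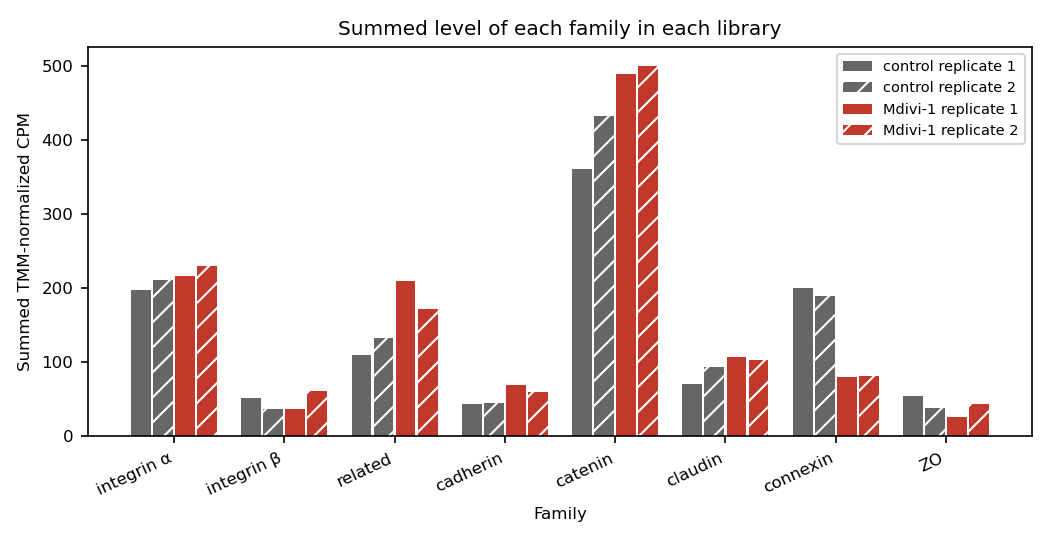
Summed TMM-normalized CPM (y axis, from 0) of all genes of each family (x axis, with integrin-related genes as "related" and zonula occludens genes as "ZO") per library, with controls in grey, Mdivi-1-treated libraries in red and replicate 2 hatched. Connexins summed to 201 and 189 CPM without the inhibitor and 79.4 and 81.4 CPM with it, and the catenin sums of 362 and 433 CPM lay below those of 490 and 501 CPM. The catenins did not move together. Group means were 116 against 219 CPM for *Ctnnal1* and 18.2 against 61.1 CPM for *Ctnna3*, while *Ctnnb1*, *Ctnnbl1* and *Ctnnbip1* were lower in both treated libraries.

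*Cdh1*, the cadherin on which compaction depends, was measured in all libraries. It had 15.8 and 15.9 CPM without the inhibitor and 20.0 and 22.7 CPM with it. Both treated libraries were slightly above both controls, with a log2 fold change of 0.42 (SE 0.42, adjusted p = 0.697 by edgeR and 0.801 by DESeq2). *Cdh2*, N-cadherin of neural and mesenchymal cells, was at 4.41 and 2.23 CPM against 9.77 and 8.29 CPM (log2 fold change 1.44, SE 0.76, adjusted p = 0.403 by edgeR), without overlap. *Cdh3* (P-cadherin) had 2.14 and 4.13 CPM without the inhibitor and 9.29 and 2.66 CPM with it, with overlap.

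Other cadherins were sparse, at under 14 CPM in each library. *Cdh17*, an intestinal cadherin, had no count in the controls and 14 and 41 counts in the treated libraries. Set against 3 counts per control library, it was at least 8.66-fold higher in treated embryos (edgeR adjusted p = 0.253, DESeq2 adjusted p = 0.144). Such a gene passed the filter only through its treated libraries. *Cdh9* had 3.23 and 13.4 CPM within the controls alone, wider than the difference between the groups. *Cdh12*, *Cdh15*, *Cdh18* and *Cdh26* each had counts in 1 library, with 7 to 17 counts there. Cadherins summed to 43.4 and 45.0 CPM without the inhibitor and 68.6 and 59.2 CPM with it.

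The catenins link cadherins to the cytoskeleton, and β-catenin also carries Wnt signals. *Ctnnb1* had 87.8 and 109 CPM without the inhibitor and 55.2 and 66.7 CPM with it. The groups did not overlap, and the log2 fold change was -0.69 (SE 0.31, adjusted p = 0.326 by edgeR and 0.286 by DESeq2). Its exons share bases with *Ulk4* and a microRNA gene, so some reads may have been lost to ambiguity. *Ctnna1*, which couples β-catenin to actin, had 66.9 and 65.3 CPM against 98.5 and 65.5 CPM. Mdivi-1 replicate 1 alone stood apart there, and without it the log2 fold change went from 0.31 to -0.01. *Ctnnd1* (p120-catenin, which keeps cadherins at the membrane) was at 14.6 and 16.3 CPM against 18.1 and 17.1 CPM, with a log2 fold change of 0.19 (SE 0.44). A read-through gene model shares 4482 of its 7319 exonic bases, which makes that value uncertain.

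*Ctnnal1* and *Ctnna3*, relatives of αE-catenin, were the catenin genes with the smallest p. *Ctnnal1*, on the minus strand of chromosome 4 from 56810935 to 56865188 (ENSMUSG00000038816), had 105 and 126 CPM without the inhibitor and 186 and 251 CPM with it. Its log2 fold change was 0.92 (SE 0.31, adjusted p = 0.228 by edgeR and 0.0834 by DESeq2). *Ctnna3* encodes αT-catenin, known from heart muscle, and lies on chromosome 10 from 63430098 to 65003667 (ENSMUSG00000060843). It had 6.78 and 29.6 CPM without the inhibitor and 77.1 and 45.0 CPM with it. Both treated libraries were higher, but the controls differed by more than 4 times from each other. The log2 fold change of 1.75 (SE 0.66, adjusted p = 0.260 by edgeR and 0.0696 by DESeq2) was 1.04 without control replicate 1 and 3.15 without control replicate 2.

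Of the remaining catenin-related genes, *Ctnnbl1* had 52.4 and 71.4 CPM against 38.5 and 42.6 CPM, and *Ctnnbip1*, an inhibitor of β-catenin that binds it in place of TCF, had 24.9 and 12.7 against 11.8 and 9.23 CPM. For both, the treated libraries lay below the controls, with edgeR adjusted p of 0.414 and 0.491. *Ctnnd2* was between 2.89 and 4.72 CPM, and *Ctnna2* had 2 counts in all.

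Tight junction genes were few and uneven between libraries. *Cldn6*, the claudin of early epithelium with the highest level per kilobase of exon, had 37.5 and 15.9 CPM without the inhibitor and 44.9 and 13.7 CPM with it. In both groups replicate 1 was more than 2 times replicate 2, and the difference within groups exceeded that between them. *Cldn4* and *Cldn7*, which the trophectoderm later uses, were at most 2.17 and 4.85 CPM in a library. *Cldn34d* had 241 and 467 raw counts against 157 and 259 and *Cldn34b2* 4.51 and 13.3 against 11.1 and 15.1 CPM, with overlap for both. The *Cldn34* genes are related copies, so that counts of uniquely mapped reads are uncertain for each.

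*Cldn16*, a claudin of the kidney tubule, passed the filter only through its treated libraries, so its DESeq2 call is partly set by the filter. It had no count in the controls and 54 and 33 counts (2.90 and 1.72 CPM) in the treated libraries. Against 3 counts per control library it was at least 13.9-fold higher (edgeR adjusted p = 0.213, DESeq2 adjusted p = 0.0373). The call was lost without control replicate 1 or 2 (DESeq2 adjusted p = 0.0934 and 0.0871), and DESeq2 gave no adjusted p without either Mdivi-1 library. *Cldn9* had 0.182 and 0.131 CPM without the inhibitor and 1.29 and 5.37 CPM with it, 4 and 2 counts against 24 and 103 (edgeR adjusted p = 0.272, DESeq2 adjusted p = 0.103). *Cldn8*, *Cldn10* and *Cldn12* had the same order, at under 2 CPM in each control and between 3.70 and 8.53 CPM in the treated libraries. Their edgeR adjusted p ranged from 0.379 to 0.434. These genes and *Cldn9* reached the filter level in both treated libraries but not in both controls, so their differences are partly set by the filter. *Cldn1*, a claudin of many epithelia, had 41 counts in Mdivi-1 replicate 1 and none elsewhere.

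Among the zonula occludens genes, whose proteins anchor claudins to actin, *Tjp1* had 37.4 and 25.5 CPM without the inhibitor and 17.5 and 24.1 CPM with it. These did not overlap, by a small margin, with a log2 fold change of -0.60 (SE 0.41, edgeR adjusted p = 0.541). *Tjp3* was under 0.7 CPM in all libraries but Mdivi-1 replicate 2, where it had 5.58 CPM.

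Genes that work with these proteins were counted from 4 lists of the same pathways, beside 8.27% of all genes higher and 7.64% lower at an unadjusted p under 0.05. Of 20 integrin adaptor and signalling genes tested, 2 were higher and 0 lower by that rule. These were *Bcar1* (p130Cas, a docking protein of focal adhesions) with 0.501 and 0.262 CPM against 5.42 and 3.91 CPM, and *Zyx* (zyxin) with 0.137 and 0 CPM against 4.08 and 1.04 CPM. *Zyx* passed the filter only through its treated libraries, and *Bcar1* did not reach its level in control replicate 2. Both differences are therefore partly set by the filter. *Rsu1* had 4.14 and 5.18 CPM against 8.16 and 11.5 CPM, and *Cd151*, a tetraspanin bound to laminin receptors, 4.32 and 12.0 against 2.47 and 3.86 CPM. Of 18 matrix ligand genes, 0 were higher and 1 lower. This was *Vcam1*, a ligand of α4β1 and α9β1, which had 1.50 and 5.64 CPM without the inhibitor and 0.161 and 0.156 CPM with it (edgeR adjusted p = 0.254). *Vcam1* passed the filter only through its controls, which partly sets this difference. *Lama4* and *Lamc1*, chains of laminins, and *Fn1* (fibronectin) overlapped between the groups.

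Of 31 other junction and polarity genes tested, 1 was higher and 1 lower, where 8.27% and 7.64% of all genes were. *F11r*, which encodes the tight junction protein JAM-A, had 45.6 and 63.8 CPM without the inhibitor and 16.6 and 25.9 CPM with it. With a log2 fold change of -1.36 (SE 0.39), it had an edgeR adjusted p of 0.199 and a DESeq2 adjusted p of 0.0507. *Nectin3*, which encodes an adhesion protein that precedes cadherins at new contacts, had 48.4 and 52.0 CPM against 85.2 and 97.2 CPM (log2 fold change 0.86, SE 0.30, adjusted p = 0.239 by edgeR). *Dsc2*, a desmosomal cadherin, had 19 and 0 raw counts against 205 and 48, and *Pard3*, a polarity scaffold, had 88.1 and 84.7 CPM against 119 and 144 CPM. With no count in control replicate 2, *Dsc2* has a difference that is partly set by the filter. Of 22 genes of actomyosin and the cell cortex, 2 were higher and 1 lower by the same rule. *Myl12a* and *Myl12b*, near-identical regulatory light chains of myosin, had 40.4 and 43.6 against 80.3 and 71.4 CPM and 14.6 and 19.1 against 33.3 and 36.4 CPM. *Arpc3*, a subunit of the Arp2/3 complex, had 25.8 and 83.7 against 11.3 and 27.4 CPM. *Tpm1*, a tropomyosin, had 3.64 and 5.84 against 0.376 and 0.938 CPM. Mdivi-1 replicate 1 was below the filter level for *Tpm1*, so this difference is partly set by the filter. By adjusted p, edgeR's quasi-likelihood test and DESeq2 each called 0 genes of these 4 lists, and the counts above are those at an unadjusted p.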

How the data were processed

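RNA of late 2C embryos was measured by Smart-Seq2 in 2 control and 2 Mdivi-1 libraries. The authors trimmed reads with cutadapt, mapped them with STAR at default settings and counted reads in exons with its GeneCounts mode. The submitters' processing notes name cutadapt 1.16 and mm10, with no version of STAR given in the sources used here. The deposited raw counts were used. The deposited table also holds a signal per library (count divided by a size factor) and its mean, and the authors' DESeq2 comparison with log2 fold changes, a Wald score and p-values, none of which were used. Coordinates and exons are from GENCODE M21 on GRCm38, matched by gene identifier for all 119 members. The positions in the deposited table, whose build is not named there, equal these for 4 members and were not used. Without strand, reads over exons of overlapping genes cannot be assigned to either.

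Genes passing filterByExpr (minimum count 10) were normalized by TMM and tested, two-sided, with edgeR 4.0.16's quasi-likelihood test (R 4.3.3), and p-values were adjusted by Benjamini-Hochberg across 14259 genes. Standard errors were worked back from this test. DESeq2 1.42.0 and limma-voom (limma 3.58.1) were run on the same genes. Tests were also run on counts simulated with the spread fitted to these same libraries. Such counts cannot show how the tests do where the real spread departs from that fit. Replicates differed beyond sampling noise (chi-square divided by its degrees of freedom 115 for the control pair, 52.9 for the Mdivi-1 pair), and each library was 1 sample.

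Members, lists and tests were chosen with earlier results of these data known. Values in each library are given for members past an unadjusted p of 0.05 or called by DESeq2, for members known for compaction and blastocyst formation, for members with at least 10 CPM in a group mean, and for up to 4 genes with the smallest p of each pathway list. Others named were chosen after their values were seen. Some members are not reported here by name.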

Additional observations from a re-analysis of the deposited data

How the results depend on the processing

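Of 444 log2 fold changes of the 36 named and tested members under 16 alternatives, 24 changed sign, and of the 170 that belong to the 13 members past an unadjusted p of 0.05 or called by DESeq2, 0 did. Those 13 were picked for their differences in these same libraries, and their groups did not overlap. A change of sign was therefore unlikely from the start, and its absence is no separate check. Counts depended on the test. At an unadjusted p under 0.05, 13 members were higher with no filter on low counts and 13 by DESeq2, and 4 to 12 when 1 library was left out. Over all genes these counts were 1498 of 18702 with no filter, 1307 of 14259 by DESeq2 and 566 to 1696 with 1 library left out. Lower members numbered 3 with library totals in place of TMM, 3 by limma-voom, 2 with the replicate number as a block, and 1 to 6 when 1 library was left out. At an adjusted p under 0.05 with no filter, 3 members were higher and 1 lower. DESeq2 also gave 3 and 1, limma-voom 1 and 1, and the likelihood ratio test 4 and 1. With DESeq2, chosen after seeing the data, leaving out 1 library gave 0 to 8 higher and 0 to 1 lower (8 and 1 with control replicate 1 removed, 5 and 1 with control replicate 2 removed), where DESeq2 called 788 and 633 of all genes, and 603 and 198, against 54 and 27 once Mdivi-1 replicate 1 was removed and 68 and 143 once replicate 2 of that group was, and by edgeR's quasi-likelihood test 0 and 0. In those fits the lone library is assumed to vary like the other group. With 1 library left out, 25 to 32 members lay above all controls and 18 to 25 below, since fewer libraries were compared. The same count was not made over all genes, so whether the members differ from them here is not known.

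The median log2 fold change of the members ran from 0.069 to 0.40 when 1 library was left out, 0.069 being without Mdivi-1 replicate 2. Ranges of the same kind were 0.36 to 1.25 for cadherins, 0.070 to 0.35 for catenins, 0.35 to 1.51 for claudins, -0.87 to 0.27 for connexins, -0.64 to 0.11 for integrin α, -0.64 to 0.12 for integrin β, -4.36 to 0.79 for integrin-related genes and -0.80 to -0.087 for zonula occludens genes. With no filter, the median was 1.15 for cadherins, 0.71 for connexins and -0.071 for integrin α. By limma-voom it was -0.53 for connexins and -0.13 for integrin α, and with the replicate block -0.55 for connexins. The medians of connexins, integrin α, integrin β and integrin-related genes therefore changed sign under at least 1 of these. The cause was not tested.

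Single genes that changed sign were mostly low or uneven. *Cldn4* had 0.23 with library totals and 0.56 by limma-voom, *Cldn6* -0.057 by limma-voom, *Gjc1* 0.11 with library totals and 0.0087 by limma-voom, and *Itga3* -0.13 by limma-voom and -0.16 with the replicate block. Leaving out 1 library gave -0.24 to 1.55 for *Cdh3*, -0.018 to 1.52 for *Cldn34b2*, -7.34 to 7.34 for *Cldn4*, -0.97 to 0.88 for *Cldn6*, -0.43 to 1.94 for *Cldn7* and -0.013 to 0.56 for *Ctnna1*. It gave -0.42 to 0.36 for *Gjc1*, -1.46 to 0.98 for *Itga3*, -0.060 to 0.69 for *Itga6*, -0.63 to 0.87 for *Itgb1*, -0.64 to 0.12 for *Itgb5* and -0.43 to 3.10 for *Tjp3*. Library totals moved the median of all genes to 0.14. Same-numbered libraries did not deviate together (correlation across genes 0.00105, across members 0.00515). The labels do not say whether they were prepared together, and this correlation cannot settle it. Depth limits the members under 10 CPM, whose control and treated levels rest on few counts.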
